A study of Mus musculus with 9 samples.

Results

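The genes described here make cholesterol and fatty acids or control and move cholesterol in the cell. They were taken from a list of 36 gene symbols that stand for 35 genes, since Msmo1 was also listed under its older symbol Sc4mol. Of these, 34 were found among the 12842 genes of the expression table, as 17 sterol synthesis enzymes, 8 genes of sterol control and transport, and 9 enzymes of fatty acid synthesis. Hmgcs1 was not analysed here.

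Cholesterol is built from acetyl-CoA through mevalonate, isoprenoid phosphates, squalene and lanosterol, and fatty acids are built from the same acetyl-CoA by carboxylation, chain assembly, elongation and desaturation. When sterols are scarce, Scap carries the SREBP proteins encoded by Srebf1 and Srebf2 from the endoplasmic reticulum to the Golgi, where they are cleaved into active transcription factors, while the Insig proteins hold them back when sterols are plentiful. Prostate epithelium is rich in cholesterol, and fatty acid synthesis is a known feature of prostate tumours.

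The study asked what follows when Nsd2, a histone H3 lysine methyltransferase also called Whsc1, is silenced or targeted by a compound in prostate cancer cells. Its text describes silencing in mouse NPK cells and in human prostate cancer cells. It describes treatment of cancer cells with the compound only for the human cells and their xenografts. Poly-A RNA of cultured NPK cells was sequenced in 9 libraries, with 3 in each of 3 groups. All groups were the same NPK line, isolated from lung metastases of genetically engineered mice in which a tamoxifen-inducible Cre, active in prostate cells, starts the tumours. The control group was labelled as control cells, the shNsd2 group as cells with shRNA silencing of Nsd2, and the MCTP group as cells treated with MCTP, a compound the study used as a putative NSD2 inhibitor whose selectivity it left in doubt. The labels of a group were not uniform. The 3 MCTP libraries carry the compound numbers MCTP39, MCTP40 and MCTP41, of which the study's text names only the first. All 3 shNsd2 titles name shNsd2, but the source names of those libraries read Nsd2 for the first, Nsd3 for the next and Nsd4 for the last. The libraries were grouped by title, and whether each treated group holds 3 replicates of 1 treatment cannot be told from the labels. The labels gave no dose, time or vehicle for MCTP and did not say which shRNA was used, and the same control libraries served both comparisons. The control titles name only NPK cells, with no control shRNA or vehicle. Effects of delivering an shRNA or of a vehicle therefore cannot be told apart from those of Nsd2 silencing or MCTP. Nothing in the labels said that libraries came from separate cultures, so the p-values measure only the spread between these libraries, which may be technical.

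Values are expression values as deposited, on a scale treated here as log2. The header does not name their transform, so a difference of 1 need not be a doubling, least of all for low values. They are not per gene length, so levels were compared between libraries and not between genes. The epithelial marker Krt8, which had the highest deposited value of its list, read 16.21, 16.35 and 16.28 in the control libraries, and Krt18, its keratin partner, read 15.25, 15.47 and 15.44. Of 10 prostate epithelial markers, 7 were in the table, and Epcam lay below 3.78, the floor used to leave out weakly measured genes, in all 9 libraries. Pbsn and Krt5 were not analysed here.

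Nsd2 read 12.48, 12.43 and 12.42 in the control libraries, 11.56, 11.61 and 11.68 with shNsd2, and 12.15, 12.21 and 12.07 with MCTP. Every library of both treated groups lay below every control library. The change was -0.83 with shNsd2 (SE 0.0408, limma adjusted p = 2.26e-06) and -0.30 with MCTP (SE 0.0537, adjusted p = 0.00562), which did not pass the threshold after correction for GC content (-0.12).

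The libraries differed in a way that the groups do not explain. In control replicate 1, MCTP replicate 2 and shNsd2 replicate 3, genes with more G and C in their transcript read lower than their group's mean, with Spearman correlations across genes of -0.59, -0.70 and -0.65, whereas the other 6 libraries had correlations of 0.36 to 0.68. These are correlations across genes, which are not independent replicates. Fold changes also moved with GC content, with a Spearman correlation across genes of 0.248 with shNsd2 and 0.469 with MCTP. Counts are therefore also given with GC content corrected, and with these 3 libraries left out, an alternative chosen after seeing the data that narrows the spread within each group by its construction.

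Sterol synthesis enzymes were lower with shNsd2. Of the 17 enzymes, 16 fell and none rose at a limma adjusted p under 0.05, while 24.8% of the 12205 genes tested fell and 23.1% rose. The same 16 enzymes had every shNsd2 library below every control library, as did 29.1% of all genes tested. The median change of the enzymes was -0.75 and that of all genes was 0.002. Of the 17, 10 were among the 1% of genes with the most negative changes, and 15 were among the lowest 5%. In such bulk RNA, fewer cells of a kind and less RNA per cell cannot be told apart. The count was 16 with GC content corrected, where 28.2% of all genes tested fell, and 16 with the 3 libraries left out, where 30.8% fell.

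With MCTP, 13 of the 17 sterol enzymes fell and none rose, while 17.2% of the 12216 genes tested fell and 18.0% rose. Every MCTP library lay below every control library for 14 enzymes, and for 24.8% of all genes tested. The median change was -0.54, against -0.006 for all genes, and 5 enzymes were among the lowest 1% of genes and 12 among the lowest 5%. With GC content corrected, 14 fell and 1 rose, against 23.0% and 22.6% of all genes tested. With the 3 libraries left out, 14 fell and 3 rose, against 31.7% and 30.3%.

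The pathway opens with Acat2, a thiolase that joins acetyl-CoA units. Acat2 read 11.97, 11.96 and 12.01 in the control libraries, 11.08, 11.06 and 11.01 with shNsd2, and 11.31, 11.10 and 11.24 with MCTP. The control libraries stood apart at the top, and the shNsd2 libraries lay just below the MCTP libraries. Its change was -0.93 with shNsd2 (SE 0.0347, adjusted p = 7.24e-07) and -0.76 with MCTP (SE 0.0619, adjusted p = 1.99e-04).

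Mvk and Pmvk are the kinases that phosphorylate mevalonate in turn, and Mvd is the decarboxylase that forms isopentenyl diphosphate. Mvk read 10.33, 10.43 and 10.39 in the control libraries, 9.85, 9.79 and 9.70 with shNsd2, and 10.19, 9.98 and 10.31 with MCTP. All treated libraries lay below all controls, but MCTP replicate 3 was only just below control replicate 1. Mvk fell by 0.60 with shNsd2, and its change with MCTP was -0.22, which did not pass the threshold (adjusted p = 0.0721) but did with GC content corrected (-0.32), with all 9 libraries in 1 fit (-0.22), without MCTP replicate 3 (-0.30) and with the 3 libraries left out, where the change was smaller (-0.16). Without MCTP replicate 2 it was -0.14 (adjusted p = 0.061). Pmvk fell by 0.85 with shNsd2 and by 0.50 with MCTP. Mvd read 10.50, 10.57 and 10.56 in the control libraries, 9.69, 9.59 and 9.53 with shNsd2, and 9.97, 9.81 and 10.06 with MCTP. The 3 groups of Mvd values did not overlap, with shNsd2 lowest and control highest. Mvd fell by 0.94 with shNsd2 (SE 0.0485, adjusted p = 2.69e-06) and by 0.59 with MCTP (SE 0.0715, adjusted p = 0.00108).

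Idi1 interconverts the isoprenoid building blocks. Idi1 read 11.96, 11.49 and 11.37 in the control libraries, 10.57, 10.46 and 10.68 with shNsd2, and 10.57, 11.04 and 10.39 with MCTP. Control replicate 1 was the highest of all and MCTP replicate 2 the highest of the treated libraries, both of them libraries with the GC difference, and the Idi1 transcript is 41.9% G and C. Groups of treated and control libraries still did not overlap. The change was -1.04 with shNsd2 (SE 0.131, adjusted p = 3.07e-04) and -0.94 with MCTP (SE 0.194, adjusted p = 0.00943), and with the 3 libraries left out it was -0.91 and -0.95.

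Fdps makes farnesyl diphosphate, Fdft1 joins farnesyl units into squalene, and Sqle oxidises squalene in the step that commits it to sterols. Their changes with shNsd2 were -0.75 for Fdps, -0.74 for Fdft1 and -0.69 for Sqle. With MCTP they were -0.58, -0.59 and -0.46 in the same order, and all passed the threshold in both comparisons. Sqle read 12.58, 12.52 and 12.52 in the control libraries, 11.86, 11.82 and 11.87 with shNsd2, and 12.14, 12.06 and 12.03 with MCTP. Its 3 groups did not overlap, and the MCTP libraries lay between the others.

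Lss closes squalene epoxide into lanosterol, the earliest sterol of the pathway. Lss read 12.32, 12.32 and 12.36 in the control libraries, 11.29, 11.27 and 11.27 with shNsd2, and 11.50, 11.33 and 11.45 with MCTP. The groups were tight and did not overlap. Lss fell by 1.06 with shNsd2 (SE 0.032, adjusted p = 5.65e-07) and by 0.91 with MCTP (SE 0.056, adjusted p = 6.83e-05).

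Cyp51 then removes a methyl group from lanosterol, and Msmo1, Nsdhl and Hsd17b7 act in turn on the methyl groups at another carbon. Cyp51 read 12.67, 12.62 and 12.65 in the control libraries, 11.62, 11.58 and 11.66 with shNsd2, and 11.99, 11.94 and 11.85 with MCTP. Msmo1 read 12.46, 12.40 and 12.39 in the control libraries, 11.50, 11.49 and 11.60 with shNsd2, and 11.74, 11.77 and 11.59 with MCTP. For both genes the control libraries stood above all treated libraries, and for Msmo1 shNsd2 replicate 3 and MCTP replicate 3 came to nearly the same value. Cyp51 fell by 1.03 with shNsd2 (SE 0.0349) and by 0.72 with MCTP (SE 0.0528), and Msmo1 fell by 0.89 (SE 0.0398) and by 0.72 (SE 0.0605). Nsdhl, the sterol dehydrogenase, fell by 0.91 with shNsd2 and by 0.54 with MCTP.

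Hsd17b7, the ketosteroid reductase that completes this demethylation, differed between the treatments. Hsd17b7 read 10.33, 10.21 and 10.16 in the control libraries, 9.52, 9.52 and 9.58 with shNsd2, and 10.41, 10.47 and 10.35 with MCTP. The shNsd2 libraries stood well below all others, and the MCTP libraries lay just above the controls. It fell by 0.69 with shNsd2 (SE 0.0503, adjusted p = 1.59e-05). With MCTP the change was 0.18 (SE 0.0627), which did not pass the threshold (adjusted p = 0.0602). It did pass with GC content corrected (0.30) and with the 3 libraries left out (0.20). The same held with quantile normalization (0.21), median centring (0.21) and all 9 libraries in 1 fit (0.18). The change was 0.14 to 0.23 with each library left out in turn.

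Ebp, Sc5d, Dhcr7 and Tm7sf2 are enzymes that move or reduce double bonds of the sterol rings or introduce one. Ebp, the sterol isomerase, was the only sterol enzyme whose change with shNsd2 did not pass the threshold. Ebp read 11.14, 11.24 and 11.24 in the control libraries, 11.27, 11.17 and 11.12 with shNsd2, and 11.32, 11.12 and 11.45 with MCTP. These groups overlapped. Its change was -0.02 with shNsd2 (95% interval -0.13 to 0.09), and without shNsd2 replicate 3 the sign turned (0.01), and with MCTP it was 0.09 (95% interval -0.11 to 0.29), or 0.05 with GC content corrected, and passed the threshold without MCTP replicate 2 (0.18, the highest of 0.01 to 0.18 over all 6 left out in turn) and with the 3 libraries left out (0.15). Sc5d, the desaturase, fell by 0.58 with shNsd2 and by 0.45 with MCTP (-0.30 with GC content corrected). Dhcr7, which makes cholesterol from its immediate precursor, fell by 0.58 with shNsd2 and by 0.31 with MCTP. The latter call was lost without control replicate 2 (-0.30) or control replicate 3 (-0.29), with an adjusted p of up to 0.0555 over the 15 alternatives.

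Tm7sf2, a sterol reductase, had the smallest fall of the 16 enzymes called with shNsd2. Tm7sf2 read 8.39, 8.29 and 8.37 in the control libraries, 8.15, 8.06 and 8.04 with shNsd2, and 8.48, 8.26 and 8.55 with MCTP. The shNsd2 libraries lay below all controls, whereas MCTP replicate 2 lay below and the other MCTP libraries above them. It fell by 0.27 with shNsd2 (adjusted p = 0.00197), and its change with MCTP was 0.08 (adjusted p = 0.458), or 0.04 with GC content corrected, and it passed the threshold without MCTP replicate 2 (0.16, the highest of 0.02 to 0.16 over all 6) and with the 3 libraries left out (0.18).

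**Figure D1:**
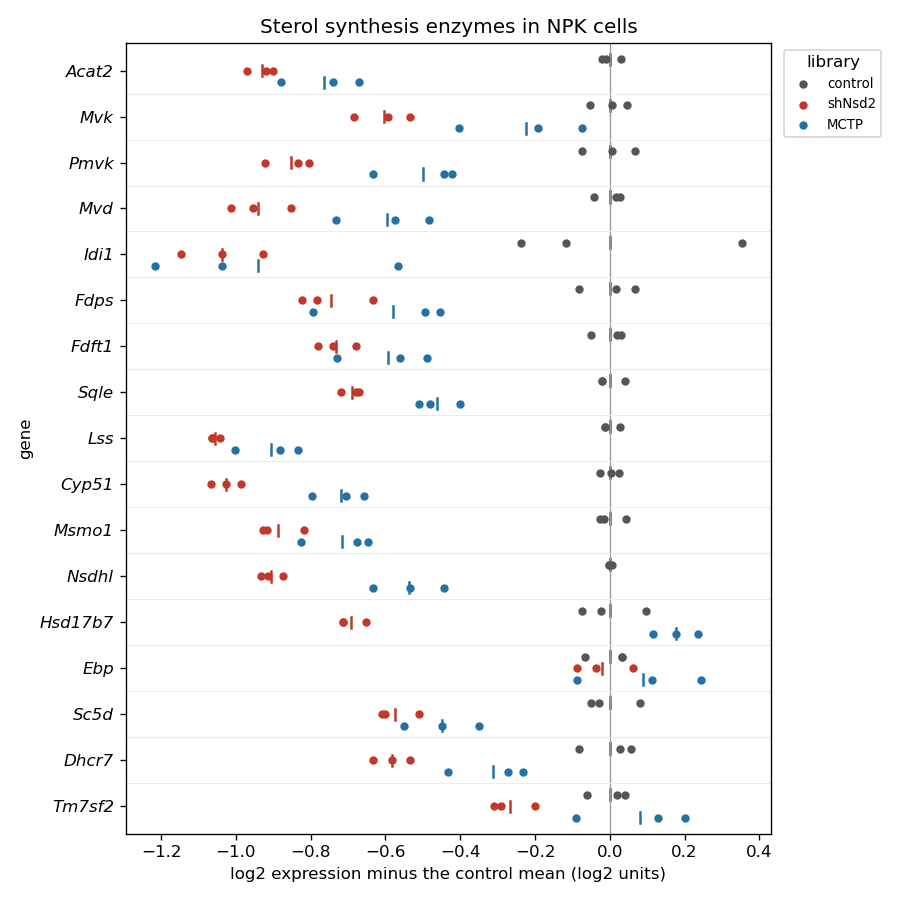
Log2 expression of the 17 sterol synthesis enzymes in each library, as the difference from the control mean in log2 units, with control in grey, shNsd2 in red, MCTP in blue and a short bar at each group mean. The shNsd2 points lie to the left of all control points for every enzyme but Ebp, and the MCTP points do so for 14 of the 17, all but Hsd17b7, Ebp and Tm7sf2.

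Among the 8 genes of sterol control and transport, 4 fell and 1 rose with shNsd2, and 4 fell and 2 rose with MCTP. The shares of all genes tested were 24.8% lower and 23.1% higher with shNsd2, and 17.2% lower and 18.0% higher with MCTP. The median change was -0.20 with shNsd2 and -0.03 with MCTP. With GC content corrected the counts were 5 lower and 2 higher with shNsd2 (28.2% and 27.9% of all genes tested), and 4 lower and 3 higher with MCTP (23.0% and 22.6%). With the 3 libraries left out they were 5 lower and 1 higher with shNsd2 (30.8% and 30.0%), and 4 lower and 4 higher with MCTP (31.7% and 30.3%).

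Insig1, which holds the Scap and SREBP complex in the endoplasmic reticulum and is itself a target of the SREBP proteins, read 12.51, 12.34 and 12.38 in the control libraries, 11.52, 11.50 and 11.56 with shNsd2, and 11.81, 11.81 and 11.69 with MCTP. The 3 groups did not overlap, and shNsd2 was lowest. Insig1 fell by 0.88 with shNsd2 (SE 0.0476, adjusted p = 3.33e-06) and by 0.64 with MCTP (SE 0.0637, adjusted p = 4.88e-04). Its relative Insig2 read 11.99, 11.96 and 11.99 in the control libraries, 11.55, 11.55 and 11.59 with shNsd2, and 11.84, 11.85 and 11.71 with MCTP. Again the groups did not overlap. Insig2 fell by 0.42 with shNsd2 and by 0.18 with MCTP, the latter with an adjusted p of 0.0344. That call was lost without any library but MCTP replicate 2 (-0.21 to -0.14 over all 6 libraries left out in turn) and with quantile normalization (-0.16) or median centring (-0.15), with an adjusted p of up to 0.118 over the 15 alternatives.

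Stard4, a carrier of sterols between membranes, read 12.05, 11.82 and 11.76 in the control libraries, 11.18, 11.15 and 11.27 with shNsd2, and 11.15, 11.31 and 10.98 with MCTP. Both treated groups lay below the controls and overlapped each other. Stard4 fell by 0.67 with shNsd2 (SE 0.0708, adjusted p = 1.12e-04) and by 0.73 with MCTP (SE 0.103, adjusted p = 0.00216).

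Of the genes for the SREBP proteins, Srebf2, whose product acts mainly on sterol genes, read 13.62, 13.74 and 13.78 in the control libraries, 13.43, 13.41 and 13.35 with shNsd2, and 13.55, 13.35 and 13.54 with MCTP. Treated libraries were below all controls, with MCTP replicates 1 and 3 close to control replicate 1. Srebf2 fell by 0.32 with shNsd2 (adjusted p = 6.40e-04) and by 0.23 with MCTP (adjusted p = 0.0418). The MCTP call was lost without any library but MCTP replicate 2 (-0.28 to -0.17 over all 6) and with median centring (-0.20). Srebf1, whose product acts mainly on fatty acid genes, read 12.71, 12.77 and 12.78 in the control libraries, 12.69, 12.71 and 12.61 with shNsd2, and 12.92, 12.75 and 12.94 with MCTP. These ranges overlapped with those of the controls in both comparisons. Its changes of -0.08 and 0.12 did not pass the threshold (adjusted p = 0.115 and 0.186), although the former did with GC content corrected (-0.15) and without control replicate 1 (-0.11), the latter without MCTP replicate 2 (0.18), and both with the 3 libraries left out (-0.08 and 0.15). Correction for GC content left the MCTP change at 0.01 (adjusted p = 0.784).

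Scap, the escort of the SREBP proteins, read 11.54, 11.65 and 11.68 in the control libraries, 11.88, 11.85 and 11.73 with shNsd2, and 11.92, 11.72 and 11.98 with MCTP. All treated libraries were above all controls. Scap rose by 0.19 with shNsd2 (adjusted p = 0.013) and by 0.24 with MCTP (adjusted p = 0.0421), or by 0.12 and by 0.14 with GC content corrected. The shNsd2 call was lost without shNsd2 replicate 1 (0.16) or 2 (0.18) and with all 9 libraries in 1 fit (0.19), and the MCTP call without any library but MCTP replicate 2 (0.19 to 0.32 over all 6).

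Abca1, which exports cholesterol from the cell, read 4.87, 4.84 and 4.87 in the control libraries, 4.90, 4.94 and 4.89 with shNsd2, and 5.44, 5.62 and 5.48 with MCTP. The MCTP libraries stood clear of the other 6. Abca1 rose by 0.65 with MCTP (SE 0.0482, adjusted p = 1.30e-04), from values near the low end of the table, and its change with shNsd2 was 0.05 (adjusted p = 0.155). Npc1, which releases cholesterol from lysosomes, had changes of 0.04 with shNsd2 and 0.13 with MCTP, neither past the threshold (adjusted p = 0.317 and 0.148) as fitted, although both passed it with GC content corrected (0.09 and 0.20), and the latter without MCTP replicate 2 (0.18, the highest of 0.09 to 0.18 over all 6) and with the 3 libraries left out (0.17).

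Fatty acid enzymes were lower with shNsd2, where all 9 fell, against 24.8% of all genes tested. With MCTP, 8 of the 9 fell, against 17.2%. No enzyme of this list rose in either comparison, while 23.1% and 18.0% of all genes tested rose. For all 9 enzymes, every library of each treated group lay below every control library, against 29.1% of genes tested with shNsd2 and 24.8% with MCTP. The median change was -0.40 with shNsd2 and -0.31 with MCTP, against 0.002 and -0.006 for all genes. With GC content corrected the counts were 9 with shNsd2 and 9 with MCTP, against 28.2% and 23.0% of all genes tested. With the 3 libraries left out they were 9 and 8, against 30.8% and 31.7%. Whether the fatty acid list differed from the sterol list in the size of its changes was not tested.

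Acly and Acss2 both make cytosolic acetyl-CoA, from citrate and from acetate. Acss2 read 9.23, 9.35 and 9.37 in the control libraries, 8.26, 8.26 and 8.27 with shNsd2, and 8.77, 8.57 and 8.86 with MCTP. The 3 groups were well separated, with shNsd2 lowest. Acss2 fell by 1.05 with shNsd2 (SE 0.0468, adjusted p = 1.28e-06) and by 0.58 with MCTP (SE 0.084, adjusted p = 0.00242). Acly read 13.53, 13.49 and 13.50 in the control libraries, 13.05, 13.09 and 13.07 with shNsd2, and 13.37, 13.25 and 13.29 with MCTP. The MCTP libraries lay between the other groups. Acly fell by 0.44 with shNsd2 and by 0.21 with MCTP. The MCTP call was lost without any control library or MCTP replicate 3 (-0.24 to -0.18 over all 6 libraries left out in turn) and with median centring (-0.17).

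Acaca carboxylates acetyl-CoA to malonyl-CoA, and Fasn assembles palmitate from it. Acaca fell by 0.24 with shNsd2 (adjusted p = 3.33e-04) and by 0.25 with MCTP (adjusted p = 0.0072). Fasn read 14.60, 14.65 and 14.63 in the control libraries, 14.47, 14.46 and 14.34 with shNsd2, and 14.59, 14.37 and 14.60 with MCTP. All MCTP libraries lay below the controls, replicates 1 and 3 only just and replicate 2 further. Fasn fell by 0.20 with shNsd2 (SE 0.0446, adjusted p = 0.00527). Its change with MCTP was -0.11 (SE 0.0735), which did not pass the threshold (adjusted p = 0.274) but did with GC content corrected (-0.21) and with quantile normalization (-0.13). It was -0.03 without MCTP replicate 2 (-0.15 to -0.03 over all 6) and -0.04 with the 3 libraries left out (adjusted p = 0.458).

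Scd1 and Scd2 introduce a double bond into saturated fatty acids. Scd1 read 14.16, 14.16 and 14.18 in the control libraries, 13.40, 13.39 and 13.42 with shNsd2, and 13.87, 13.77 and 13.77 with MCTP. Scd2 read 16.49, 16.48 and 16.48 in the control libraries, 16.08, 16.08 and 16.08 with shNsd2, and 16.33, 16.23 and 16.23 with MCTP. For both desaturases the groups were tight and separate, with MCTP in the middle. Scd1 fell by 0.76 with shNsd2 (SE 0.0319) and by 0.37 with MCTP (SE 0.0519), and Scd2 fell by 0.40 (SE 0.0392) and by 0.22 (SE 0.0629). The Scd2 call with MCTP was lost without any library but MCTP replicate 2 (-0.26 to -0.20 over all 6) and with median centring (-0.19). These genes are close relatives, and how reads they share were counted is not given in the sources used here.

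Elovl6 lengthens palmitate to stearate. Elovl6 read 11.24, 10.99 and 10.91 in the control libraries, 10.45, 10.41 and 10.58 with shNsd2, and 10.20, 10.54 and 10.09 with MCTP. Control replicate 1, shNsd2 replicate 3 and MCTP replicate 2, the libraries with the GC difference, were each the highest of their group. Elovl6 fell by 0.57 with shNsd2 (SE 0.0797, adjusted p = 5.15e-04) and by 0.77 with MCTP (SE 0.128, adjusted p = 0.00403).

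Fads1 and Fads2 are the desaturases of polyunsaturated fatty acids. Fads1 read 11.93, 12.03 and 12.04 in the control libraries, 11.82, 11.81 and 11.78 with shNsd2, and 11.63, 11.48 and 11.61 with MCTP. Here the MCTP libraries were lowest and the shNsd2 libraries lay between. Fads1 fell by 0.20 with shNsd2 (adjusted p = 0.00354) and by 0.43 with MCTP (adjusted p = 0.00224). Fads2 read 11.54, 11.57 and 11.56 in the control libraries, 11.19, 11.20 and 11.11 with shNsd2, and 11.33, 11.13 and 11.27 with MCTP. All treated libraries lay below all controls and overlapped each other. Fads2 fell by 0.39 with shNsd2 (adjusted p = 6.53e-05) and by 0.31 with MCTP (adjusted p = 0.0075).

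**Figure D2:**
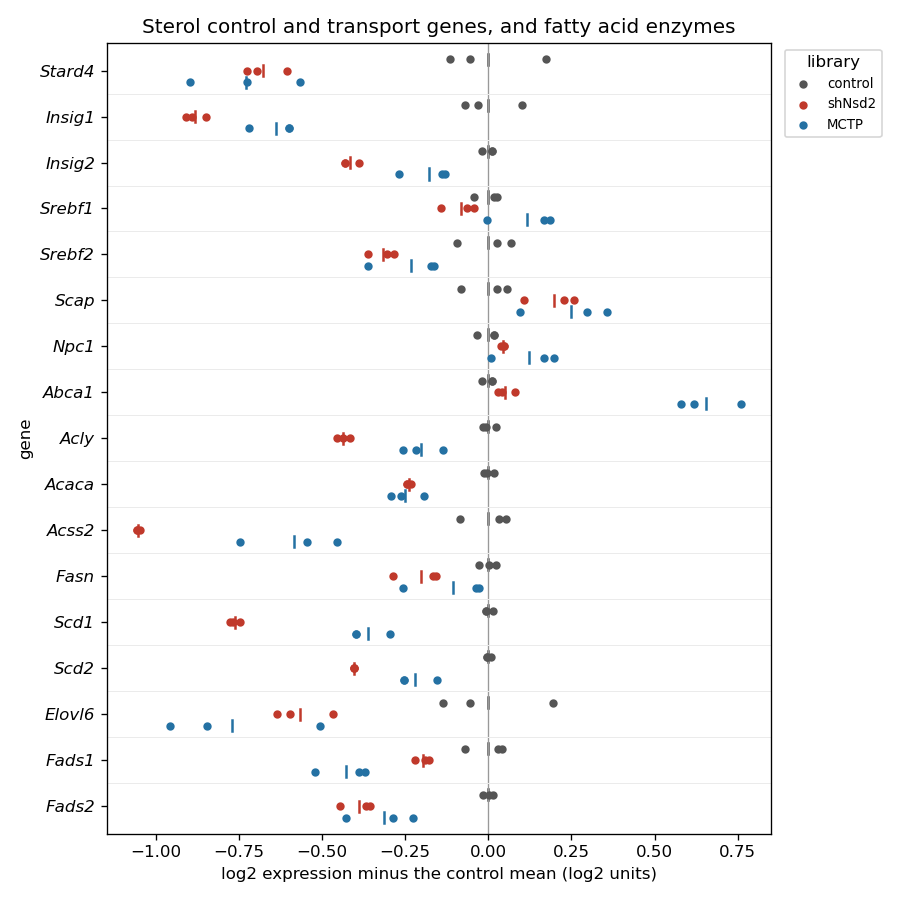
Log2 expression of the 8 sterol control and transport genes (Stard4 to Abca1) and the 9 fatty acid enzymes (Acly to Fads2) in each library, as the difference from the control mean in log2 units, with control in grey, shNsd2 in red, MCTP in blue and a short bar at each group mean. All 9 fatty acid enzymes have their treated points to the left of the control points, Insig1, Insig2, Stard4 and Srebf2 do as well, and Abca1 stands to the right with MCTP.

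The treated groups were then compared directly, without the control libraries, which both earlier comparisons share. Of the 17 sterol enzymes, 9 were lower with shNsd2 than with MCTP and none was higher, while 22.6% of the 12217 genes tested were lower and 20.6% higher. The difference, shNsd2 minus MCTP, had a negative sign for all 17, with a median of -0.23 against 0.007 for all genes. With GC content corrected 13 were lower, against 28.5% of all genes tested, and with the 3 libraries left out 15 were lower, against 31.5%. Leaving out MCTP replicate 2 alone gave 14, against 32.0%.

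Hsd17b7 had the most negative difference, -0.87 (SE 0.0512, adjusted p = 4.17e-05), with every shNsd2 library below every MCTP library. The other 8 enzymes called were Mvk at -0.38, Nsdhl at -0.37, Pmvk at -0.36, Mvd and Tm7sf2 at -0.35, Cyp51 at -0.31, Dhcr7 at -0.27 and Sqle at -0.23. Without MCTP replicate 1 the calls of Mvk (-0.36), Tm7sf2 (-0.33) and Dhcr7 (-0.25) were lost, and that of Dhcr7 also without shNsd2 replicate 3 (-0.24). For the 8 others, intervals bound the difference. It was -0.15 for Lss (95% interval -0.27 to -0.03, adjusted p = 0.0542) and -0.10 for Idi1 (95% interval -0.45 to 0.26), where the sign turned without MCTP replicate 2 (0.09).

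Among the control and transport genes, 4 of 8 were lower with shNsd2 than with MCTP and none was higher, against 22.6% and 20.6% of all genes tested. They were Abca1 at -0.60 (adjusted p = 1.15e-04), Insig1 and Insig2 at -0.24 each, and Srebf1 at -0.20 (adjusted p = 0.0381). The Srebf1 call was lost without any library but MCTP replicate 2 (-0.26 to -0.16 over all 6). Leaving out MCTP replicate 2 gave 7 of 8, all lower, where 32.0% of all genes tested were lower and 31.6% higher. For Stard4 the difference was 0.06 (95% interval -0.14 to 0.25), and its sign turned with GC content corrected.

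Of the 9 fatty acid enzymes, 4 were lower with shNsd2 than with MCTP and 1 was higher, against 22.6% and 20.6% of all genes tested. The lower ones were Acss2 at -0.47, Scd1 at -0.40, Acly at -0.23 and Scd2 at -0.18. The higher one was Fads1 at 0.23 (SE 0.0535, adjusted p = 0.0118), a call lost without shNsd2 replicate 1 (0.22) or 2 (0.23). The Scd2 call was lost without any shNsd2 library or MCTP replicate 1 (-0.20 to -0.15 over all 6) and with quantile normalization (-0.09). Elovl6 had a difference of 0.20 (95% interval -0.06 to 0.47), which passed the threshold only when MCTP replicate 2 (0.34) or the 3 libraries (0.29) were left out. Without MCTP replicate 2 the count was 8 of 9, with 6 lower, where 63.6% of all genes tested were called. With the 3 libraries left out 5 were lower and 2 higher, where 62.6% were called.

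**Figure D3:**
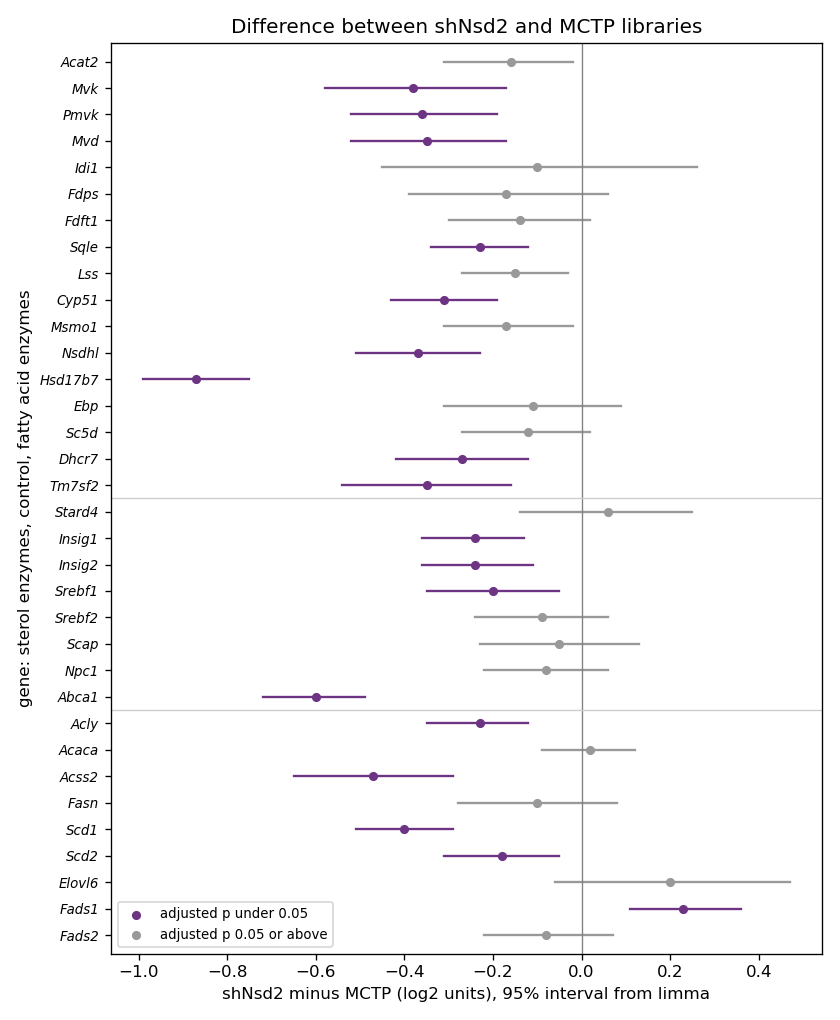
Difference between the shNsd2 and MCTP groups in log2 units for the 34 genes, negative where shNsd2 was lower, with 95% intervals from limma over 3 libraries a group. Purple marks an adjusted p under 0.05, horizontal lines part the 17 sterol enzymes, 8 control genes and 9 fatty acid enzymes, and Hsd17b7 at -0.87 and Abca1 at -0.60 lie farthest to the left.

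Genes of these pathways outside the list of 35 were counted in the same way. Of 24 other sterol genes tested, 9 fell and 2 rose with shNsd2 and 4 fell and 2 rose with MCTP, with medians of -0.08 and 0.01. Of 24 other genes of fatty acid and glycerolipid metabolism, 11 fell and 2 rose with shNsd2 and 7 fell and 3 rose with MCTP, with medians of -0.06 in both. Among all genes tested, 24.8% fell and 23.1% rose with shNsd2, and 17.2% fell and 18.0% rose with MCTP. With GC content corrected, the counts lower and higher with MCTP were 7 and 2 of the sterol genes and 8 and 3 of the fatty acid genes, against 23.0% and 22.6% of all genes tested. With the 3 libraries left out they were 9 and 5, and 9 and 7, against 31.7% and 30.3%. With shNsd2 they were 12 and 3, and 10 and 3 with GC content corrected, against 28.2% and 27.9%, and 13 and 3 for each list with the 3 libraries left out, against 30.8% and 30.0%.

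Vldlr, a lipoprotein receptor, read 11.05, 11.16 and 11.28 in the control libraries, 10.20, 10.25 and 10.46 with shNsd2, and 9.96, 10.07 and 9.83 with MCTP. The 3 groups did not overlap, and MCTP was lowest. Vldlr fell by 0.86 with shNsd2 and by 1.21 with MCTP, and the direct difference was 0.35 (adjusted p = 0.0163), a call lost without MCTP replicate 1 (0.35) or shNsd2 replicate 3 (0.27). Npc2, the lysosomal partner of Npc1, was lower with shNsd2 than with MCTP by -0.37. Mbtps2, a protease that cleaves the SREBP proteins, fell by 0.42 with MCTP (adjusted p = 0.0368). The Mbtps2 change was -0.22 with GC content corrected, and its call was lost without any library but MCTP replicate 2 (-0.56 to -0.31 over all 6).

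Acsl3 and Acsl4, ligases that activate long-chain fatty acids, fell by 0.56 and by 0.84 with shNsd2 and by 0.49 and by 0.69 with MCTP. The Acsl4 call with MCTP was lost without control replicate 1 or 2 or MCTP replicate 1 or 3 (-0.89 to -0.52 over all 6). Lpin1, a phosphatidate phosphatase, read 10.18, 10.07 and 10.12 in the control libraries, 9.28, 9.29 and 9.30 with shNsd2, and a mean of 10.02 (SD 0.02, n = 3) with MCTP. The shNsd2 libraries stood far below the rest. Lpin1 fell by 0.83 with shNsd2, and the direct difference was -0.72 (adjusted p = 4.56e-05). Me1, a source of NADPH for fatty acid synthesis, rose by 0.45 with MCTP, with a change of 0.04 with shNsd2. Fabp5, a fatty acid binding protein, rose by 0.43 with shNsd2, with a change of -0.01 with MCTP.

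Promoters were examined because most of these genes fell together, and the motifs were chosen after that was seen. RefSeq promoter windows of 300 bases (GRCm38.p6, 250 bases before to 50 after the start) were matched for 26 of the 34 genes, and for Fdps, Fdft1, Sqle, Stard4, Npc1, Scd1, Scd2 and Fads1 none was matched. On both strands, the letters CCAAT, the box of the factor NF-Y, lay in at least 1 window of 13 of 14 sterol enzymes, 4 of 6 control genes and 3 of 6 fatty acid enzymes, and in 41.1% of the 27025 genes with a window (37.4% of 32851 windows). GGGCGG, the box of Sp1, lay in 13 of 14, 6 of 6 and 3 of 6, and in 38.2% of all genes. CACGTG, an E-box, lay in 3 of 14, 3 of 6 and 0 of 6, and in 8.09% of all genes. TCACNCCAC, one spelling of the sterol regulatory element, lay in none of the 26 genes and in 1.44% of all genes, and the repeat GGTCANNNNGGTCA in none of the 26 and in 0.0518%. A match of letters is a description and not a bound site, and the absence of letters says nothing of sites outside these windows or spelled otherwise.

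The windows of Mvk and Nsdhl are shown because they held the most CCAAT boxes of the sterol enzymes, that of Lss for its large fall, that of Hsd17b7 for its difference between the treatments, and that of Ebp because its box-bearing window belongs to the sterol enzyme with the smallest change with shNsd2. They are printed 5′ to 3′ on the strand of the gene, with CCAAT and its reverse complement ATTGG in capitals. Mvk lies at chr5:114444019-114444318 on the plus strand with 5 boxes, Lss at chr10:76531355-76531654 on the plus strand with 1, Nsdhl at chrX:72918271-72918570 on the plus strand with 4, Hsd17b7 at chr1:169969156-169969455 on the minus strand with 3, and Ebp at chrX:8193463-8193762 on the minus strand with 2.
Mvk: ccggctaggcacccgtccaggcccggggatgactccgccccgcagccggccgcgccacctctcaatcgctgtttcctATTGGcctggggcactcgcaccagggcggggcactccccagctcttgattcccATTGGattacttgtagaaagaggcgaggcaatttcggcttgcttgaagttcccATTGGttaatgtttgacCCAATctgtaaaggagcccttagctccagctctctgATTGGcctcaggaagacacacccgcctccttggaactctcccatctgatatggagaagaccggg
Lss: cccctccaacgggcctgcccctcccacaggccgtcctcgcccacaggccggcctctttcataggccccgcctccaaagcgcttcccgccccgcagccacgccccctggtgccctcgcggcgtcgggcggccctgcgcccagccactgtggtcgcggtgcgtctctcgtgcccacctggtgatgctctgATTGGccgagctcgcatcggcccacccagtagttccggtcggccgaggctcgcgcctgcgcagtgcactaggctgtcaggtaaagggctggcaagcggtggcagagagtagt
Nsdhl: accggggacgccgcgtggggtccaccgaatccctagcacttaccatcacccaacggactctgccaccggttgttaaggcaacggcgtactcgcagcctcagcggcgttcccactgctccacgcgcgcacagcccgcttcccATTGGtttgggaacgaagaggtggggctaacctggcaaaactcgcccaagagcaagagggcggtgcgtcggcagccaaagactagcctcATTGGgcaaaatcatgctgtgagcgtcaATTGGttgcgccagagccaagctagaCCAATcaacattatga
Hsd17b7: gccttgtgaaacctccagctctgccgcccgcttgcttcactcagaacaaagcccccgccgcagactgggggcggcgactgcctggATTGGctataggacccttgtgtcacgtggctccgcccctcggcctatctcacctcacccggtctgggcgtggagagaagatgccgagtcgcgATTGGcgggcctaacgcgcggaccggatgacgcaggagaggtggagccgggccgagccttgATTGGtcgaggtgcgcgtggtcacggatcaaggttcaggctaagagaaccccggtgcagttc
Ebp: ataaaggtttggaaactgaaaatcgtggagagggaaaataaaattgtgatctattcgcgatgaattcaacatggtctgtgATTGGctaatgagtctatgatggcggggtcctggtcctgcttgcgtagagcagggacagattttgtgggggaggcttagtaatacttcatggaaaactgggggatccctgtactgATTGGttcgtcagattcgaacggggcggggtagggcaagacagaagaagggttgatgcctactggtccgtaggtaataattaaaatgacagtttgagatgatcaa

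The 5 sequences differ in how many boxes they hold, and Ebp, whose change was not past the threshold in either comparison with control, holds more than Lss.

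Exons of 7 of the 34 genes overlap those of another protein-coding gene in GENCODE M21, and strand was not stated for the counting, so reads there cannot be assigned to either gene with certainty. Fdft1 shares 774 exonic bases with Ctsb, whose change was -0.16 with shNsd2 and 0.16 with MCTP. Acss2 shares 395 with Gss, whose change was 0.19 with shNsd2 and 0.69 with MCTP, and 197 with Ggt7. Tm7sf2 shares 532 with Vps51 (-0.07 and 0.09), Npc1 511 with Rmc1 (-0.01 and 0.20), Cyp51 166 with Akap9 (-0.04 and -0.50) and Srebf1 109 with Rai1 (0.14 and 0.17). Fdps shares 1124 with Gm43738, which was not analysed here.

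Markers of the epithelium and of other cell types were read beside these results. Of 6 epithelial markers tested, 4 fell and 1 rose with shNsd2, and 1 fell and 1 rose with MCTP. Of all genes tested, 24.8% fell and 23.1% rose with shNsd2, and 17.2% and 18.0% with MCTP. Krt14 rose by 0.78 with shNsd2 and by 1.19 with MCTP, and Cdh1 fell by 0.20 and by 0.34. Krt8 fell by 0.21 with shNsd2, a call kept under 10 of 15 alternatives, and changed by 0.25 with MCTP (adjusted p = 0.0812). Of 6 adipocyte markers, Pparg and Fabp4 were in the table, with the higher deposited values for Pparg, and their level, summed after treating the values as plain log2 and set back on that scale, was 11.65, 11.71 and 11.65 in the control libraries, 11.32, 11.31 and 11.32 with shNsd2, and 11.28, 11.23 and 11.31 with MCTP. Pparg fell by 0.37 with shNsd2 and by 0.46 with MCTP, Fabp4 rose by 0.57 with MCTP, and the defining markers Adipoq and Plin1 were not analysed here. Of 6 immune markers only Cd68 was in the table, at 6.50, 6.51 and 6.60 in the control libraries, and it rose by 0.23 with shNsd2 and by 0.73 with MCTP. Of 6 fibroblast markers, 4 were in the table, with the highest deposited values for Col3a1, and their summed level was 11.12, 10.92 and 11.06 in the control libraries, 10.76, 10.75 and 10.75 with shNsd2, and 10.96, 10.90 and 10.81 with MCTP. That sum is mostly Col3a1, which fell by 0.28 with shNsd2 and changed by -0.12 with MCTP (adjusted p = 0.209). Col1a1 fell by 0.30 with shNsd2 and by 0.33 with MCTP, whereas Pdgfra rose by 0.13 with shNsd2 (adjusted p = 0.00161) and changed by 0.05 with MCTP (adjusted p = 0.0955). Of 4 endothelial markers only Cdh5 was in the table, below the floor. The part of these markers in the sterol and fatty acid changes was not tested.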

How the data were processed

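Expression was measured by poly-A RNA sequencing of 9 libraries of cultured NPK cells, grouped by their labels. The authors deposited expression values per gene, treated here as log2 (12842 genes, 1.63 to 18.47), already normalized; the header does not name the transform. The study's methods describe normalized counts with stabilized variance for cells sorted from tumours and metastases. They do not state whether this also held for the cultured NPK libraries. Such a transform understates changes of weakly expressed genes. The submitters' processing notes name bcl2fastq 1.8.4, TopHat, Cufflinks, DESeq, DESeq2 and mm9. The table gives no counts, so the depth behind each value is unknown. It has 12 value columns, of which 3 matched no labelled library and were not used. RNA kit and labels give no strand of counting.

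From these values, each pair of groups was compared with limma 3.58.1 (R 4.3.3; two-sided moderated test with a mean-variance trend, 3 libraries a group). Genes above 3.78, the median of the lowest 10% of values, in at least 3 libraries were tested, and p-values were adjusted by Benjamini-Hochberg over all of them, with a threshold of 0.05. All 34 members passed this filter in every comparison. The test was checked on simulated data. Tables were made with Python 3.11.15 and figures with matplotlib 3.10.9. GC content came from the longest GENCODE M21 transcript (97.4% of genes matched), and its correction was a lowess curve (span 0.3) per library. Alternatives were no filter, all 9 libraries in 1 fit, a replicate block, quantile normalization, median centring, no trend, GC correction without and with the block, each library left out in turn, and, chosen after seeing the data, leaving out the library of each group with lower values at high GC content, 15 in all for each comparison.

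The members and lists were chosen with earlier results of these data known. All members were to be named, with library values preferred for the 5 largest changes per list and comparison. Of the other pathway genes, the 5 largest changes past the threshold in each comparison were named, except for a gene that is not reported here. Of the markers, the most abundant and defining genes were named, and Krt14 and Cdh1 were added after their changes were seen. Ebp, Hsd17b7, Mvk, Sqle, Tm7sf2, Srebf1 and Fasn were given in full after their values were seen, as were the motifs and the printed promoters.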

Additional observations from a re-analysis of the deposited data

Results flagged for a closer look

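For 3 genes the changes with shNsd2 and with MCTP had opposite signs and the direct test between the treatments passed the threshold, a criterion set after the values were seen. Hsd17b7 changed by -0.69 with shNsd2 and 0.18 with MCTP, a difference of -0.87 (limma adjusted p = 4.17e-05), and every shNsd2 library lay below every MCTP library. Tm7sf2 changed by -0.27 and 0.08, a difference of -0.35 (adjusted p = 0.0118), again with all shNsd2 libraries below all MCTP libraries. Srebf1 changed by -0.08 and 0.12, a difference of -0.20 (adjusted p = 0.0381) that held under 9 of 15 alternatives. With GC content corrected the MCTP changes of Tm7sf2 and Srebf1 were 0.04 and 0.01, so their signs rest on changes near 0. Only the shNsd2 changes of Hsd17b7 and Tm7sf2 passed the threshold against control.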

How the results depend on the processing

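With shNsd2, all 16 sterol enzymes and all 9 fatty acid enzymes called stayed past the threshold with the same direction under all 15 alternatives, as did 4 of 5 control genes, Scap being the exception. With MCTP this held for 12 of 13 sterol enzymes (not Dhcr7), 3 of 6 control genes (not Insig2, Scap and Srebf2) and 6 of 8 fatty acid enzymes (not Acly and Scd2). Between the treatments it held for 11 of 18.

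The number of genes called with MCTP, 4305, was 7575 with the 3 libraries with lower values at high GC content left out and ranged from 2029 to 7372 with each library left out, the highest without MCTP replicate 2; the cause was not tested. Between the treatments, the 5276 genes called ranged from 3361 to 7756 with each library left out. With shNsd2 the range was 4332 to 6006 around 5836. For the members, leaving out each library gave 3 to 8 control genes called with MCTP, and between the treatments 6 to 14 sterol enzymes, 3 to 7 control genes and 3 to 8 fatty acid enzymes. Sterol enzymes called between the treatments were 15 with the 3 libraries left out. Dropping libraries leaves fewer values a group, and dropping those that stood apart narrows the spread.

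Signs turned in 7 of 1575 values of single genes, none of them called. For Ebp with shNsd2, leaving out each library gave -0.062 to 0.013, the latter without shNsd2 replicate 3. Between the treatments, Idi1 was at 0.036 with the 3 libraries left out and at -0.23 to 0.09 with each library left out, turning without MCTP replicate 2. Stard4 was at -0.004 with GC correction, at -0.004 with GC correction and the block, and at -0.028 to 0.14 with each library left out, turning without MCTP replicate 3. Acaca was at -0.005 to 0.046, turning without MCTP replicate 3. The cause was not tested.

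The replicate numbers did not pair the libraries: same-numbered libraries had mean correlations of deviations of -0.25 (shNsd2 with control), -0.18 (MCTP with control) and -0.36 (shNsd2 with MCTP). With the replicate block, 4515 genes were called with shNsd2, 3399 with MCTP and 3794 between the treatments, 3 control genes were called with MCTP, and 2 fatty acid enzymes were called between the treatments. Calls lost with the block were those of Acly, Insig2, Scap, Scd2 and Srebf2 with MCTP and of Acly, Fads1, Scd2 and Srebf1 between the treatments; of the members called, no other was lost with it.

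Limits: 3 libraries a group, of unknown depth and with no stated separate cultures, 1 control group for both treatments, labels that are not uniform within the treated groups, no dose or time for MCTP, and GC content that moved with the fold changes. The control titles name no control shRNA or vehicle. Protein, lipids and flux were not measured.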
